A study of Mus musculus with 4 samples.

Results

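Whole urogenital sinus (UGS) of male Tbx18GFP/GFP mouse embryos was compared between embryonic days E18.5 and E16.5 by RNA-Seq. The comparison takes in every gene that reached 1 FPKM in either mutant library, which were 14713 of the 25819 rows of the deposited table. FPKM is a level per length of transcript and per mapped read of the library. The value followed is the log2 ratio of the E18.5 over the E16.5 FPKM, so that 1 is a doubling. The series holds 4 libraries, Tbx18GFP/GFP and wild type at each of the 2 stages, each made from pooled RNA of 3 embryos genotyped by PCR after timed matings. Tbx18GFP/GFP (written Tbx18Gfp/Gfp in the labels) is homozygous for a null allele in which GFP is knocked into the *Tbx18* locus, and the wild type embryos do not carry it. The null allele is present in every cell of the mutant and is not limited to the UGS. Per the paper its mouse lines were kept on a B6C3-F1 hybrid background. There was 1 library a group, so within the RNA-Seq a difference has no replicate check and no test. Pooling leaves the spread between embryos unknown in these values.

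The UGS is the embryonic tube from which the prostate, the urethra and the bladder neck form. Its epithelium is surrounded by mesenchyme, and part of this mesenchyme becomes smooth muscle during late gestation. Smooth muscle cells contract through smooth muscle actins and myosin, anchored by desmin-type filaments, and serum response factor (SRF) with its partner myocardin switches on the genes for these proteins. TBX18 is a T-box transcription factor of mesenchymal cells that is known for its role in forming the smooth muscle coat of the ureter. The urothelium, the lining of the bladder and urethra, makes uroplakins as it matures.

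The libraries held an estimated 55700000 mapped reads for the E16.5 mutant and 52400000 for the E18.5 mutant, read off from the FPKM of single reads. At these depths 1 FPKM over a transcript of 2000 bases stood for about 100 and 94 reads. The wild type libraries held about 64000000 reads at E16.5 and 29000000 at E18.5. The E18.5 wild type library stood apart: 2885 of 14807 genes (19.5%) were at least 2-fold apart between the wild type stages, and across 11682 genes the wild type stage ratio had a Spearman correlation of -0.48 with transcript GC content, against -0.22 across 12021 genes for the mutant stage ratio. Wild type values are therefore given beside the mutant values as levels, and whether the stage changes differ between the genotypes was not tested. All 12 genes listed as markers of the UGS passed the filter in the mutant. The posterior Hox gene *Hoxd13* had 44.8 FPKM at E16.5 and 36.8 FPKM at E18.5, the epithelial pioneer factor *Foxa1* 14.4 and 15.3 FPKM, and the basal keratin *Krt5* 70.7 and 71.4 FPKM. *Tbx18* itself was read at 2.50 FPKM at E16.5 and 2.93 FPKM at E18.5 in the mutant and at 3.47 and 3.16 FPKM in wild type. Reads from the targeted and from the intact gene are not told apart in these values, so they give no check of the genotype.

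Most genes had nearly the same level at both stages of the mutant. At E18.5, 198 genes were at least 2-fold higher (1.35% of those compared) and 84 at least 2-fold lower (0.571%). With a threshold of 1.5-fold these were 442 (3.00%) and 247 (1.68%). A gene under 1 FPKM in 1 mutant library passed the filter through the other, in which it was high, so its direction was fixed. Among genes with at least 1 FPKM in both mutant libraries, 124 were at least 2-fold higher at E18.5 and 29 at least 2-fold lower. The median log2 ratio over the 14257 genes that reached 1 FPKM in both was -0.06. Most of them thus lay slightly below their E16.5 level, and counts of list members below it are to be read beside this. Well expressed genes that differed were nearly all higher at E18.5, 47 against 4 of the 6823 that reached 10 FPKM in both. Of the 198 genes at least 2-fold higher, the E18.5 mutant was the highest of the 4 libraries for 165, and the E16.5 mutant the lowest for 137. Of the 84 at least 2-fold lower, the E16.5 mutant was the highest of the 4 libraries for 66. Over all 14713 genes, the E18.5 mutant was the highest for 20.4%, the E16.5 mutant the lowest for 9.01% and the E16.5 mutant the highest for 32.8%. The genes past 2-fold were chosen by the ratio of the mutant libraries themselves, so larger shares among them are partly built in. The plot of both mutant libraries shows the genes past 2-fold as points outside the 2-fold lines.

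**Figure D1:**
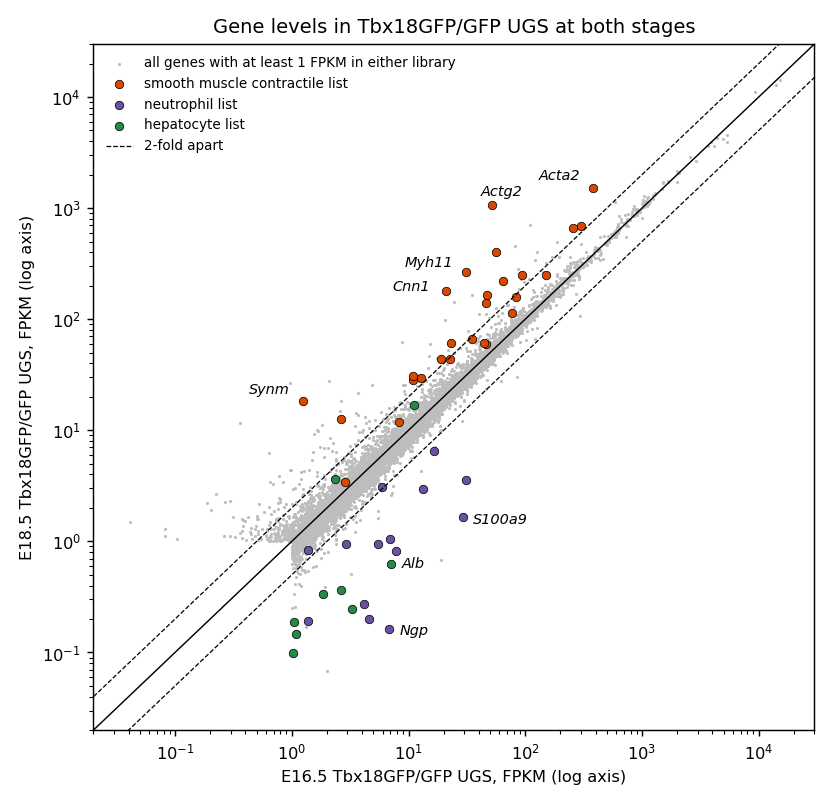
FPKM of each gene in Tbx18GFP/GFP UGS at E16.5 (x axis) and E18.5 (y axis), both on log axes, with 1 point per gene above 0 in both libraries, the line of equal level and the 2-fold lines (dashed). The 27 smooth muscle genes lie above the line of equal level, 18 of them past the 2-fold line, and 12 of the 14 neutrophil genes lie past the lower 2-fold line.

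The genes of the smooth muscle contractile apparatus were higher at E18.5 as a group. All 27 measured members were above their E16.5 level, 18 by at least 2-fold and 22 by at least 1.5-fold, and none was lower. Their median log2 ratio was 1.38, against -0.06 over all genes compared. Summed over the list the level was 1898 FPKM at E16.5 and 6561 FPKM at E18.5 in the mutant, and 2773 and 3133 FPKM in wild type. For 24 of the 27 the E16.5 mutant was the lowest of the 4 libraries, and for 24 the E18.5 mutant was the highest. In bulk tissue, fewer cells of a type and less RNA per cell cannot be told apart.

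Actins gave the largest values. *Actg2*, the enteric-type smooth muscle actin, on chromosome 6 from 83462903 to 83486245 as the deposited table places it, had 51.6 FPKM at E16.5 and 1064 FPKM at E18.5 in the mutant and 199.6 and 237 FPKM in wild type. Its log2 ratio was 4.36, with a standard error of 0.037 from counting alone. The low sample was the E16.5 mutant and the high sample the E18.5 mutant, with both wild type libraries close together between them. *Acta2*, the vascular-type smooth muscle actin, had 381 FPKM at E16.5 and 1526 FPKM at E18.5 (log2 ratio 2.004), with 597 and 698 FPKM in wild type, in the same order of libraries. By E18.5 these were the most abundant members of the list in the mutant.

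The myosin heavy chain of smooth muscle, *Myh11*, had 31.3 FPKM at E16.5 and 264 FPKM at E18.5 in the mutant, a log2 ratio of 3.08, and 86.4 and 149 FPKM in wild type. Calponin, *Cnn1*, which binds actin and restrains the myosin motor, had 21.1 FPKM at E16.5 and 178 FPKM at E18.5 (log2 ratio 3.08), with 53.8 and 53.3 FPKM in wild type. The actin-binding transgelin, *Tagln*, had 55.6 FPKM at E16.5 and 401 FPKM at E18.5 (log2 ratio 2.85) and 107 and 93.4 FPKM in wild type. For each of these 3 genes the wild type libraries lay between the 2 mutant libraries. A second row, LOC100502793, lies within the *Tagln* locus in the deposited table and had 109.7 FPKM at E16.5 and 702 FPKM at E18.5, so reads at that locus may be divided between the rows and they are not separate observations.

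The regulatory light chain *Myl9* had 256 FPKM at E16.5 and 669 FPKM at E18.5 (log2 ratio 1.38), with 312 and 361 FPKM in wild type. Tropomyosin *Tpm1*, which lies along the actin filament, had 301 FPKM at E16.5 and 686 FPKM at E18.5 (log2 ratio 1.19), and wild type had 388 and 420.5 FPKM. *Synm*, the intermediate filament protein synemin, was low at E16.5 with 1.25 FPKM, had 18.3 FPKM at E18.5 (log2 ratio 3.87), and stood at 3.80 and 4.98 FPKM in wild type. Its level was below that of the actins, and its ratio was the largest of the list after *Actg2*.

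Further members were picked for mention after their values were seen. Desmin (*Des*), the main intermediate filament of muscle, had 47.3 FPKM at E16.5 and 165 FPKM at E18.5 (log2 ratio 1.802). Leiomodin (*Lmod1*), which seeds actin filaments in smooth muscle, had 2.63 FPKM at E16.5 and 12.5 FPKM at E18.5 (2.25). Myosin light chain kinase (*Mylk*), which starts contraction, had 46.2 FPKM at E16.5 and 139.6 FPKM at E18.5 (1.60), and *Tpm2* 64.0 FPKM at E16.5 and 223 FPKM at E18.5 (1.798). The smallest ratios of the list were those of *Ppp1r12b*, a myosin phosphatase subunit (0.28), *Pdlim7* (0.38), *Actn1* (0.45), *Mrvi1* (0.52) and *Pdlim3* (0.57). These 5 were the members within 1.5-fold. Filamin A (*Flna*, 0.75) and vinculin (*Vcl*, 0.92), which anchor actin in many cell types, came next.

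**Figure D2:**
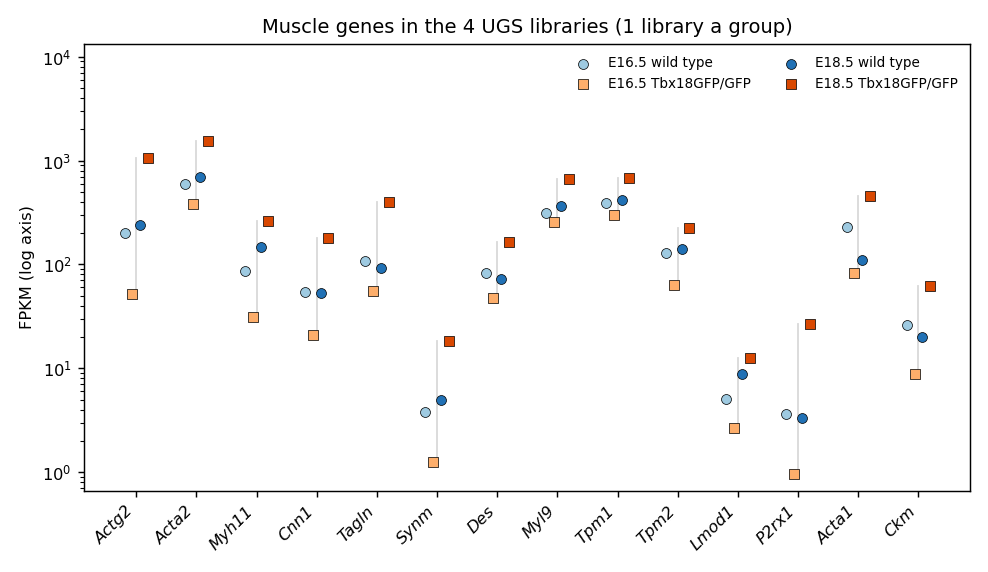
FPKM (log axis) of 14 muscle genes in the 4 libraries, 1 point per library, wild type as circles and Tbx18GFP/GFP as squares, with a grey line over the range of each gene. For every gene shown the E16.5 mutant point is the lowest and the E18.5 mutant point the highest; for *Actg2* they are 51.6 and 1064 FPKM.

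The study also measured several of these transcripts by RT-qPCR, in the individual embryos of each pool. It describes those fold changes as closely matching its RNA-Seq values for the pools. The study's comparisons are of mutant against wild type at each stage. Its statement therefore does not cover the ratio of E18.5 over E16.5 within the mutant that is followed here. The RT-qPCR values themselves are not used here. The primer pairs of 4 genes are shown because they show which transcripts were followed for muscle genes, among them members of the closely related actin family, and for a neutrophil gene. Matched to GENCODE transcripts without mismatch, each pair below found 1 gene only, with products of 192 bases for *Actg2*, 62 for *Cnn1*, 134 for *Acta1* and 92 for *S100a9*.
Actg2 forward: ccgccctagacatcagggt
Actg2 reverse: tcttctggtgctactcgaagc
Cnn1 forward: tctgcacattttaaccgaggtc
Cnn1 reverse: gccagcttgttctttacttcagc
Acta1 forward: cccaaagctaaccgggagaag
Acta1 reverse: ccagaatccaacacgatgcc
S100a9 forward: gcacagttggcaacctttatg
S100a9 reverse: tgattgtcctggtttgtgtcc
The whole of each primer matched, so no letters are in capitals. Few exact stretches of the actin transcripts are shared with relatives. Of all 50-base windows of the longest coding transcript, 2.004% of *Acta1*, 0.352% of *Acta2* and 0% of *Actg2* and *Actc1* also occur in another actin transcript. None of the 100-base windows does. Windows that differ at single bases were not counted, and the read length is not given in the sources used here. These shares therefore do not settle how reads were divided among the actins.

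Promoters of the higher genes were searched for the CArG box, the short DNA element bound by SRF. The box reads the same on both strands, and was searched without mismatch in the 250 bases before each RefSeq transcript start (build GRCm38.p6). Among the 27 smooth muscle genes 23 were matched to this table by symbol, *Actg2*, *Myh11* and *Tagln* not among them, and 2 of the 23 (8.70%) held a box, *Myl9* and *Vcl*. Of the 108 matched genes at least 2-fold higher at E18.5, 7 (6.48%) held one. None of the 45 matched genes at least 2-fold lower did. Over all 9462 matched genes of the comparison the share was 1.48%, and over all 32851 windows 1.47%. A match describes letters only, and a window without one does not speak to SRF.

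The 7 windows of the higher genes are printed because they are the whole set behind this count. Each runs 5′ to 3′ along the gene's strand, with the CArG box in capitals. They lie at chr8:123894799-123894888 for *Acta1*, chr11:5898794-5898883 for *Myl7*, chr12:103356016-103356105 for *Asb2*, chr9:66514766-66514843 for *Fbxl22* and chr2:114052876-114052962 for *Actc1*, all on the minus strand. The windows of *Fhl1*, chrX:56779541-56779630, and *Myl9*, chr2:156775263-156775352, lie on the plus strand.
Acta1: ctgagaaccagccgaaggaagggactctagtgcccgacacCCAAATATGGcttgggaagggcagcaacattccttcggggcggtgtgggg
Myl7: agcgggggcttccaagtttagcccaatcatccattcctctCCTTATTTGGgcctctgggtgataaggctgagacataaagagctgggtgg
Asb2: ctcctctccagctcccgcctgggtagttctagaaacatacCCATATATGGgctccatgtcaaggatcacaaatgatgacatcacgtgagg
Fbxl22: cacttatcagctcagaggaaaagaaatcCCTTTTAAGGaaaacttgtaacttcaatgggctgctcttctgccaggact
Actc1: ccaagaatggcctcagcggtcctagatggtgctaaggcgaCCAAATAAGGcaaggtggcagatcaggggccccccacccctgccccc
Fhl1: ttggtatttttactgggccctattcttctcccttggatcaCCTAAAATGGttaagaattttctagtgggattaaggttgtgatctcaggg
Myl9: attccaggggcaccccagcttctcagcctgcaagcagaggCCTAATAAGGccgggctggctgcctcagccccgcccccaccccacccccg
The box began 73 bases before the start in *Acta1*, 61 in *Myl7*, 64 in *Asb2*, 222 in *Fbxl22*, 47 in *Actc1*, 102 in *Fhl1* and 161 in *Myl9*. *Asb2* and *Fbxl22* encode proteins of ubiquitin ligases in muscle and *Fhl1* a LIM protein of striated and smooth muscle. Their log2 ratios were 2.04, 1.89 and 1.46, and that of the atrial light chain *Myl7* was 2.05. *Myl7* stood at 0.525 FPKM at E16.5 and 2.18 FPKM at E18.5.

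The transcription factors of the muscle programme were close to equal at both stages. Of 12 measured members 2 were at least 1.5-fold higher and none lower, with a median log2 ratio of -0.016, whose sign changed with the scaling. Myocardin (*Myocd*) had 6.51 FPKM at E16.5 and 10.6 FPKM at E18.5 (log2 ratio 0.70), with 7.94 and 10.98 FPKM in wild type. *Gata6* had 7.80 FPKM at E16.5 and 13.1 FPKM at E18.5 (0.75), with 6.43 and 14.0 FPKM in wild type. For both genes the E18.5 mutant was slightly below the E18.5 wild type. *Srf* had 16.4 and 18.6 FPKM, *Mef2a* 16.2 and 17.0, *Mef2c* 11.9 and 12.3, and *Mef2d* 10.4 and 9.49 FPKM at E16.5 and E18.5. *Tcf21*, a factor of mesenchymal progenitors, had 164 FPKM at E16.5 and 132 FPKM at E18.5 (-0.31).

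Among receptors and channels of bladder muscle 3 of 19 were at least 2-fold higher, 5 at least 1.5-fold higher and 1 lower, with a median of 0.11. The 3 past 2-fold were under 1 FPKM at E16.5, as was another of the 5, and the lower one was under 1 FPKM at E18.5. They passed the filter through the library in which they were high, so their direction was fixed. *P2rx1*, the ATP-gated channel through which bladder nerves drive contraction, on chromosome 11 from 72812647 to 72828699, had 0.959 FPKM at E16.5 and 26.6 FPKM at E18.5. That is about 121 and 3164 reads and a log2 ratio of 4.79 (counting error 0.13), with 3.66 and 3.32 FPKM in wild type. It had the largest ratio of any list member higher at E18.5. *Kcnmb1*, a subunit of the large potassium channel, had 0.691 FPKM at E16.5 and 3.27 FPKM at E18.5 (2.24). The muscarinic receptor *Chrm3* had 0.443 FPKM at E16.5 and 1.16 FPKM at E18.5 (1.38), and its relative *Chrm2* 2.67 FPKM at E16.5 and 2.77 FPKM at E18.5 (0.053). The endothelin receptors *Ednra* (-0.40) and *Ednrb* (0.11), the pacemaker chloride channel *Ano1* (0.093) and the calcium pump *Atp2b4* (0.57), the most abundant members, were all within 1.5-fold. *Htr2b*, a serotonin receptor at 1.15 FPKM at E16.5 and 0.626 FPKM at E18.5, was the member that was lower.

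Skeletal muscle genes did not share this change. Of 37 measured members 31 were within 1.5-fold, 5 were higher and 1 was lower, and the median log2 ratio was -0.087. The myogenic factors *Myod1* (4.50 to 3.63 FPKM) and *Myog* (15.7 to 12.8 FPKM) were slightly lower at E18.5, and the satellite cell factor *Pax7* had 0.384 FPKM at E16.5 and 0.277 FPKM at E18.5. Wild type had 11.4 and 3.34 FPKM of *Myod1* and 36.4 and 17.5 FPKM of *Myog*. The fast light chain *Mylpf* had 114 FPKM at E16.5 and 115 FPKM at E18.5, *Myl1* 87.2 and 95.2 FPKM, and slow troponin T (*Tnnt1*) 49.8 and 58.7 FPKM. These 3 sarcomere genes were thus within 1.5-fold between the mutant stages.

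A pair of genes on the skeletal list stood out. *Acta1*, the skeletal muscle actin, had 81.8 FPKM at E16.5 and 455 FPKM at E18.5 (log2 ratio 2.48), with 231 and 110.5 FPKM in wild type. Muscle creatine kinase, *Ckm*, had 8.86 FPKM at E16.5 and 62.6 FPKM at E18.5 (2.82), with 26.2 and 19.9 FPKM in wild type. The summed level of the list, 708 and 1191 FPKM in the mutant, differed mainly through *Acta1*. Cardiac and embryonic muscle genes that smooth muscle can also express followed, *Tnnt2* with 24.6 FPKM at E16.5 and 143 FPKM at E18.5 (2.54; wild type 61.0 and 91.2 FPKM) and cardiac actin *Actc1* with 122 FPKM at E16.5 and 341 FPKM at E18.5 (1.48). The next members past 1.5-fold were *Casq1* (0.95), *Tnnt3* (0.73) and *Jph1* (0.62).

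Other muscle-linked genes were among the 12 largest rises, counted where the higher library reached 10 FPKM and the lower one 1 FPKM. *Popdc2* and *Bves*, relatives that encode cyclic AMP-binding membrane proteins of muscle, had 2.08 FPKM at E16.5 and 27.7 FPKM at E18.5 (3.73) and 1.83 FPKM at E16.5 and 11.2 FPKM at E18.5 (2.62). In wild type *Popdc2* had 6.84 and 6.43 FPKM and *Bves* 3.25 and 3.86 FPKM. *Sh3bgr* had 3.70 FPKM at E16.5 and 21.7 FPKM at E18.5 (2.55), and Gm3386, a predicted gene model spanning 192 bases, 2.65 FPKM at E16.5 and 18.2 FPKM at E18.5 (2.78). The other 8 of the 12 were *Actg2*, *Synm*, *Myh11*, *Cnn1*, *Tagln*, the row within *Tagln*, *Ckm* and *Tnnt2*. All but Gm3386 were thus muscle genes or the row at the *Tagln* locus.

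**Figure D3:**
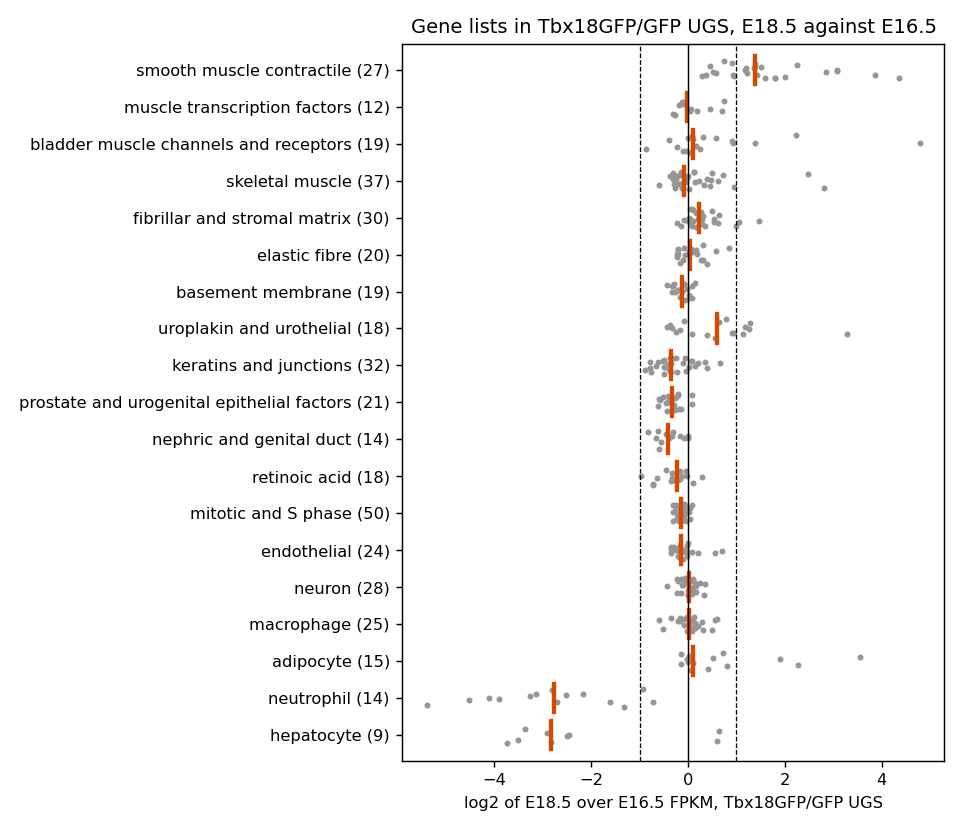
Log2 ratio of E18.5 over E16.5 FPKM in Tbx18GFP/GFP UGS for the members of 19 gene lists, with 1 grey point per gene, the list median as an orange bar and the number of genes beside each name. Dashed lines mark 2-fold, and genes listed at 0 in a library are left out. The smooth muscle median lies at 1.38 and the neutrophil and hepatocyte medians at -2.76 and -2.84, and the medians of the other lists lie between -0.40 and 0.60.

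Stromal matrix genes were slightly higher at E18.5. The median over 30 genes was 0.23, with 5 at least 1.5-fold higher and none lower. *Dpt* (dermatopontin), a small matrix protein of connective tissue, had 9.24 FPKM at E16.5 and 25.5 FPKM at E18.5 (log2 ratio 1.47), with 18.96 and 19.5 FPKM in wild type, so that the E16.5 mutant was the library that stood low. Periostin (*Postn*) had 117 FPKM at E16.5 and 183 FPKM at E18.5 (0.65). The most abundant members stayed close, *Col3a1* with 1037 and 1278 FPKM, *Col1a1* with 835 and 989, *Sparc* with 753 and 893 and *Col1a2* with 715 and 875 FPKM. Of 20 elastic fibre genes 1 was past 1.5-fold, *Mfap5* with 30.9 FPKM at E16.5 and 55.3 FPKM at E18.5 (0.84), and elastin (*Eln*) had 229.5 FPKM at E16.5 and 285 FPKM at E18.5. All 19 basement membrane genes were within 1.5-fold (median -0.12), *Col4a1* among them with 189.8 and 193 FPKM. Of 31 matrix proteases and inhibitors 2 were higher and none lower.

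Of 22 genes of TGF-beta signalling and myofibroblasts 3 were higher and 1 lower, with a median of -0.033 whose sign changed with the scaling. *Acta2* is on this list as well. *Ctgf*, a secreted matrix-bound factor, had 13.6 FPKM at E16.5 and 20.7 FPKM at E18.5 (0.60). *Gdf15*, a stress-induced member of the family, was the one that was lower, at 1.88 FPKM at E16.5 and 0.789 FPKM at E18.5 (-1.25), with 0.970 and 0.317 FPKM in wild type. Being under 1 FPKM at E18.5, *Gdf15* passed the filter through the E16.5 mutant and had to be lower. *Vim* and *Pdgfra*, general mesenchymal genes, had 387 and 422 and 71.3 and 67.8 FPKM.

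Uroplakins were higher at E18.5. Of 18 urothelial genes 5 were at least 2-fold and 9 at least 1.5-fold higher, and none was lower by that much. The median of 0.60 lay close to the 1.5-fold mark. The membrane plaque genes *Upk1a* (56.7 FPKM at E16.5 and 125 FPKM at E18.5, log2 ratio 1.14), *Upk1b* (69.6 FPKM at E16.5 and 134 FPKM at E18.5, 0.95), *Upk2* (32.1 FPKM at E16.5 and 77.6 FPKM at E18.5, 1.27) and *Upk3a* (46.0 FPKM at E16.5 and 110.3 FPKM at E18.5, 1.26) were all higher. In wild type they had 83.6 and 108, 98.6 and 138, 45.4 and 72.1, and 55.4 and 56.8 FPKM at E16.5 and E18.5. The E16.5 mutant was the lowest library for each of these 4. At E18.5 the mutant was close to wild type for *Upk1a*, *Upk1b* and *Upk2* and above it for *Upk3a*.

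*Krt20*, a keratin of the superficial umbrella cells, had 0.638 FPKM at E16.5 and 6.21 FPKM at E18.5 (log2 ratio 3.28, about 61 and 558 reads) and 1.63 and 5.24 FPKM in wild type. It was the member with the largest ratio, and both E18.5 libraries were above both E16.5 libraries. Being under 1 FPKM in the E16.5 mutant, *Krt20* passed the filter through the E18.5 mutant and had to be higher there. The urothelial serine protease *Prss27* had 1.08 FPKM at E16.5 and 1.67 FPKM at E18.5 (0.64), and *Psca*, the most abundant member, 124 FPKM at E16.5 and 163 FPKM at E18.5 (0.40). Epithelial factors of the same list were not higher, *Elf3* with a log2 ratio of -0.44, *Gata3* with -0.37, *Klf5* with -0.34 and *Ehf* with -0.16. *Pparg*, the nuclear receptor of urothelial differentiation, had 3.24 FPKM at E16.5 and 6.10 FPKM at E18.5 (0.91).

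Keratins and cell junction genes tended to be lower. Of 32 measured, 24 were below their E16.5 level, 6 by at least 1.5-fold, and 1 was higher by that much (median -0.36). *Krt15*, a basal keratin, had 258 FPKM at E16.5 and 201 FPKM at E18.5 (-0.36), *Krt4*, a keratin of stratified mucosa, 126 FPKM at E16.5 and 82.7 FPKM at E18.5 (-0.61), and *Krt19* 154 and 147 FPKM. Both E18.5 libraries were below both E16.5 libraries for *Krt15* and *Krt4*. When ratios were centred on the median of all genes, *Krt4* was within 1.5-fold (-0.55). *Pkp1*, a plaque protein of desmosomes, had 6.33 FPKM at E16.5 and 3.68 FPKM at E18.5 (-0.78) and the tight junction gene *Cldn6* 18.49 FPKM at E16.5 and 10.9 FPKM at E18.5 (-0.76). The simple epithelial keratin *Krt18* was the exception, with 80.6 FPKM at E16.5 and 128 FPKM at E18.5 (0.67). The basal cell factor *Trp63* (7.93 to 8.39 FPKM) was close to equal.

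Of 10 genes of the epidermis and cornified envelope 4 were higher and 2 lower by 1.5-fold. *Sprr1a* and *Ivl*, precursors of the cornified envelope, had 141 FPKM at E16.5 and 268 FPKM at E18.5 (0.93) and 8.82 FPKM at E16.5 and 17.5 FPKM at E18.5 (0.98). Wild type had 199 and 822 FPKM of *Sprr1a* and 9.63 and 25.9 FPKM of *Ivl*, with E18.5 above E16.5 as well.

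**Figure D4:**
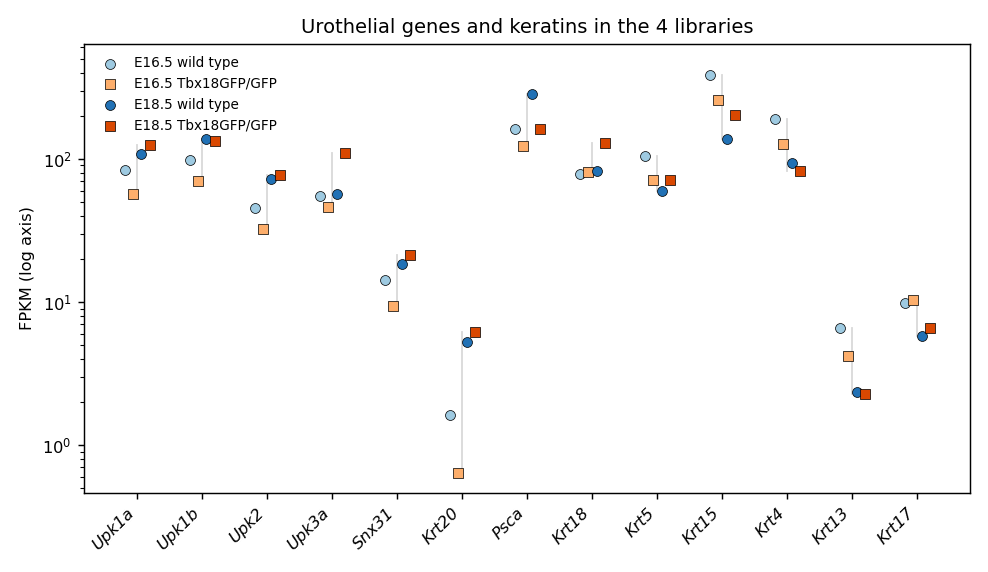
FPKM (log axis) of 13 urothelial genes and keratins in the 4 libraries, 1 point per library, wild type as circles and Tbx18GFP/GFP as squares, with a grey line over the range of each gene. The uroplakins, *Snx31* and *Krt20* are lowest in the E16.5 mutant, while *Krt15*, *Krt4*, *Krt13* and *Krt17* are lower at E18.5 than at E16.5 in both genotypes.

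Factors of prostate bud formation and the urogenital epithelium were mostly a little lower at E18.5. Of 21 genes 19 were below their E16.5 level, but 2 by at least 1.5-fold and none was higher by that much (median -0.32). *Sox9*, a factor of the growing bud tips, had 11.8 FPKM at E16.5 and 8.26 FPKM at E18.5 (-0.52), and *Sox4* 76.6 and 58.2 FPKM. *Fgfr2*, the epithelial receptor for mesenchymal FGF10, had 42.0 FPKM at E16.5 and 31.0 FPKM at E18.5 (-0.44) and *Tbx3* 46.7 and 35.1 FPKM. *Bmp4*, an inhibitor of budding, had 38.5 FPKM at E16.5 and 32.0 FPKM at E18.5 (-0.27). Each of these differences is within 1.5-fold.

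Nephric and genital duct genes were lower as a group, 14 of 14, 4 by at least 1.5-fold, with a median of -0.40. *Cdh16*, a cadherin of kidney and duct epithelium, had 29.8 FPKM at E16.5 and 18.7 FPKM at E18.5 (-0.67) and 16.6 and 10.4 FPKM in wild type. The duct factors *Pax2* (3.55 to 2.01 FPKM, -0.82) and *Pax8* (4.99 to 3.28 FPKM, -0.60) and the duct ligand *Wnt9b* (3.08 to 1.998 FPKM, -0.62) were picked for mention after their values were seen, as the other members past 1.5-fold. *Pax8* and *Wnt9b* were within 1.5-fold when ratios were centred on the median of all genes. For *Cdh16* the E16.5 mutant was the highest of the 4 libraries, and the E18.5 mutant was near the E16.5 wild type. *Gata2* had 69.1 FPKM at E16.5 and 51.9 FPKM at E18.5. *Osr1* had 29.4 and 29.3 FPKM (-0.008) and *Ret* 19.8 and 19.7 FPKM (-0.007), so both were all but equal.

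Retinoic acid genes were lower in part. Of 18 genes 4 were at least 1.5-fold lower and none higher (median -0.23). *Aldh1a3*, which makes retinoic acid in epithelium, had 46.0 FPKM at E16.5 and 23.6 FPKM at E18.5 (-0.96), with 32.9 and 22.6 FPKM in wild type. It was among the 12 largest falls. *Stra6*, the vitamin A transporter, had 30.1 FPKM at E16.5 and 18.3 FPKM at E18.5 (-0.72) and 25.9 and 17.9 FPKM in wild type, again lower at E18.5. The mesenchymal enzyme *Aldh1a2* had 67.7 FPKM at E16.5 and 60.7 FPKM at E18.5 (-0.16).

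Genes of signalling pathways differed little. None of 13 hedgehog, 19 Notch, 21 FGF or 15 insulin-like growth factor genes was past 1.5-fold. Their medians were -0.15, -0.19, -0.17 and -0.16. *Gli1*, a target of hedgehog signalling, had 30.3 FPKM at E16.5 and 25.0 FPKM at E18.5, *Notch4* 2.99 and 2.31 FPKM, and *Igf2* 330.4 and 399 FPKM. Of 26 BMP genes 2 were higher, *Bmp3* with 8.69 FPKM at E16.5 and 15.5 FPKM at E18.5 (0.83) and *Bmp5* with 3.09 FPKM at E16.5 and 5.28 FPKM at E18.5 (0.77), and 1 was lower. *Wnt5a*, a mesenchymal ligand, had 34.7 FPKM at E16.5 and 29.2 FPKM at E18.5, and 1 of 12 Wnt ligands was past 1.5-fold, the duct ligand named above. Of 28 Wnt modulators and targets 23 were below their E16.5 level, none by 1.5-fold, and 3 were at least 1.5-fold higher. Their median was -0.25, or -0.19 after subtracting the median of all genes.

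Among other developmental factors *Pitx1*, a paired-type homeobox gene of ventral and hindlimb tissues, was higher. *Pitx1* had 3.96 FPKM at E16.5 and 9.57 FPKM at E18.5 (1.27), with 7.44 and 2.85 FPKM in wild type. *Irx2* had 2.15 and 1.95, *Sim2* 0.493 and 0.447 and *Runx1* 2.101 and 2.16 FPKM. Of 9 T-box genes 3 were higher, *Tbx4* with 2.36 FPKM at E16.5 and 4.07 FPKM at E18.5 (0.79) among them, and 1 was lower. *Tbx15*, a mesenchymal relative of *Tbx18*, had 2.24 FPKM at E16.5 and 1.87 FPKM at E18.5, against 5.57 and 4.31 FPKM in wild type, so that both mutant libraries were below both wild type libraries. Of 32 Hox genes 29 were below their E16.5 level (median -0.24, or -0.18 after subtracting the median of all genes). Those past 1.5-fold were *Hoxb5* (5.25 to 3.41 FPKM, -0.62) and *Hoxb8* (11.7 to 7.79 FPKM, -0.59). Both were within 1.5-fold when ratios were centred on their median.

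Neutrophil and liver genes were lower at E18.5, and the E16.5 mutant library held more of them than any other. All 14 neutrophil genes past the filter were lower by at least 1.5-fold, 12 by at least 2-fold, with a median of -2.76. The list has 21 genes in the table, and a member that reached 1 FPKM in the E16.5 mutant only passed the filter through the library in which it was high, so the count and the median describe the members that passed and support nothing further. *S100a9* and *S100a8*, the calprotectin subunits of granulocytes, had 29.0 FPKM at E16.5 and 1.67 FPKM at E18.5 (-4.12, about 493 and 27 reads) and 31.1 FPKM at E16.5 and 3.54 FPKM at E18.5 (-3.13). Wild type had 3.54 and 2.51 FPKM of *S100a9* and 4.57 and 6.39 FPKM of *S100a8*. The 3 other libraries lay together and the E16.5 mutant apart from them.

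The granule genes *Ngp* (6.77 to 0.161 FPKM) and *Camp* (4.57 to 0.198 FPKM) had about 9 and 6 reads at E18.5, so their ratios are imprecise. They were picked for mention after their values were seen. *Stfa1*, a stefin protease inhibitor of myeloid cells, had 13.3 FPKM at E16.5 and 2.95 FPKM at E18.5 (-2.17), *Gm5483* 7.81 FPKM at E16.5 and 0.811 FPKM at E18.5 (-3.27) and BC100530 16.4 FPKM at E16.5 and 6.56 FPKM at E18.5 (-1.32). These 3 belong to 1 cluster of near-identical genes on chromosome 16, in which reads may be split between rows: 23.1% of the 50-base windows of *Stfa1* occur in another member. For all 14 genes the E16.5 mutant was the highest of the 4 libraries, and summed over the list it had 141 FPKM against 24.5 in the E18.5 mutant and 29.4 and 36.1 in wild type.

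Of 9 hepatocyte genes 7 were lower by 2-fold or more, and 2 higher by 1.5-fold or more (median -2.84, or -0.88 with a pseudocount of 1 FPKM). The list has 16 genes in the table, and the 7 lower ones reached 1 FPKM in the E16.5 mutant but not in the E18.5 mutant, so they passed the filter through the library in which they were high and had to be lower. Albumin (*Alb*) had 7.13 FPKM at E16.5 and 0.626 FPKM at E18.5 (-3.51), with 1.01 and 2.92 FPKM in wild type, and *Apoa1* 3.31 FPKM at E16.5 and 0.247 FPKM at E18.5, about 151 and 11 reads. The iron carrier *Trf* (11.1 to 17.0 FPKM, 0.61) and the hormone carrier *Ttr* (2.35 to 3.67 FPKM, 0.64), which other tissues also make, were the higher ones. *Fabp1*, shared by liver and intestine, had 2.003 FPKM at E16.5 and 0.0687 FPKM at E18.5, the latter about 1 read. The 7 lower genes were all highest in the E16.5 mutant, and the part of liver tissue or blood in these differences was not tested.

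Red cell genes did not follow as a group. Of 10 erythroid genes 2 were at least 2-fold lower, 2 at least 2-fold higher and 6 within 1.5-fold. The anion exchanger of red cells, *Slc4a1*, had 5.47 FPKM at E16.5 and 1.86 FPKM at E18.5 (-1.55), while adult globin *Hba-a1* had 14169 and 12700 FPKM, *Hbb-b1* 5337 and 4509 FPKM and the haem synthesis gene *Alas2* 103 and 91.5 FPKM. *Hba-a1* and *Hba-a2* (9253 and 11186 FPKM) are near-identical, and 67.5% of the 50-base windows of *Hba-a1* occur in a related globin transcript, so their division is uncertain. The higher ones were the embryonic globins *Hbb-y* (0.266 to 2.26 FPKM, about 6 and 50 reads) and *Hba-x* (0.510 to 1.58 FPKM). Both were under 1 FPKM at E16.5 and passed the filter through the E18.5 mutant, so they had to be higher. Macrophage genes were near equal, 1 higher and 1 lower of 25, *Tyrobp* with 12.4 and 15.4 FPKM. Mast cell genes had 1 of 6 lower, *Hdc* with 10.6 FPKM at E16.5 and 7.03 FPKM at E18.5 (-0.59). When ratios were centred on the median of all genes, *Hdc* was within 1.5-fold (-0.53).

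**Figure D5:**
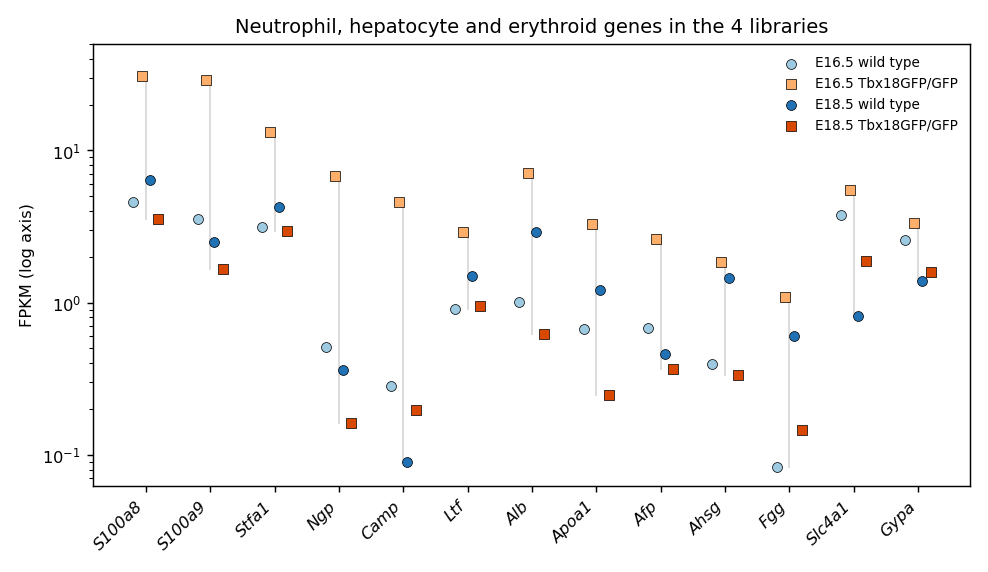
FPKM (log axis) of 13 neutrophil, hepatocyte and erythroid genes in the 4 libraries, 1 point per library, wild type as circles and Tbx18GFP/GFP as squares, with a grey line over the range of each gene. The E16.5 mutant is the highest point for every gene shown, at 29.0 FPKM for *S100a9* and 7.13 FPKM for *Alb*.

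Fat cell genes were higher in part. Of 15 adipocyte genes 3 were at least 2-fold and 5 at least 1.5-fold higher and none lower, with a median of 0.11. *Fabp4*, a fatty acid carrier of fat cells and capillary endothelium, had 20.3 FPKM at E16.5 and 98.4 FPKM at E18.5 (2.27), with 32.3 and 94.7 FPKM in wild type. *Car3*, an abundant enzyme of fat and muscle, had 1.87 FPKM at E16.5 and 6.95 FPKM at E18.5 (1.89), with 2.14 and 5.96 FPKM in wild type. For both genes each E18.5 library was above each E16.5 library. Lipid synthesis genes were near equal, *Fasn* with 25.2 and 22.8 FPKM and *Scd1* with 11.4 and 15.2 FPKM.

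The other cell types of the UGS were close to their E16.5 level. Of 24 endothelial genes 1 was past 1.5-fold, *Ecscr* with 8.50 FPKM at E16.5 and 13.9 FPKM at E18.5, and *Pecam1* had 29.1 and 28.9 FPKM. None of 28 neuronal genes was past 1.5-fold, *Uchl1* with 136 and 143 FPKM, and 1 of 16 glial genes was, the small heat shock protein *Cryab* with 18.6 FPKM at E16.5 and 28.8 FPKM at E18.5 (0.63). Of 10 pericyte genes 1 was higher, *Ndufa4l2* with 21.9 FPKM at E16.5 and 52.8 FPKM at E18.5 (1.27) and 19.96 and 22.1 FPKM in wild type. It encodes a mitochondrial protein made by mural and hypoxic cells. The pericyte receptor *Pdgfrb* had 22.8 and 19.1 FPKM.

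Proliferation genes were narrowly lower. None of 50 was past 1.5-fold, 46 were below their E16.5 level and the median was -0.15, or -0.094 after subtracting the median of all genes. *Top2a* had 59.5 FPKM at E16.5 and 54.7 FPKM at E18.5 and *Pcna* 138 and 128 FPKM. Of 83 genes of oxidative phosphorylation 77 were above their E16.5 level, 4 by 1.5-fold (median 0.15), *Cox7a2* with 61.5 FPKM at E16.5 and 99.2 FPKM at E18.5 (0.69) among them. Glycolysis genes had a median of 0.17, and 1 of 27, *Pfkp* with 9.27 FPKM at E16.5 and 16.3 FPKM at E18.5 (0.81), was past 1.5-fold. *Gapdh* had 822 and 927 FPKM. Ribosomal protein genes had medians of 0.032 (cytosolic, 81 genes) and -0.037 (mitochondrial, 74 genes). The latter changed sign with the scaling, and *Rpl29* (58.7 to 106 FPKM) was the one ribosomal gene past 1.5-fold. None of 28 imprinted genes was (median 0.035).

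Immediate early genes had 4 of 21 higher and none lower, *Fos* with 3.09 FPKM at E16.5 and 6.202 FPKM at E18.5 (1.01) and *Klf4* with 7.59 FPKM at E16.5 and 13.3 FPKM at E18.5 (0.81). *Jun* (28.1 to 25.8 FPKM) and *Jund* (60.2 to 51.8 FPKM) were near equal. Antigen presentation genes had 2 of 14 higher, *H2-D1* with 11.5 FPKM at E16.5 and 17.8 FPKM at E18.5 (0.63) and *H2-K1* with 5.71 FPKM at E16.5 and 8.56 FPKM at E18.5 (0.59), whose reads may be shared between near-identical genes.

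By the same FPKM limits the 12 largest falls ranged from -4.12 to -0.96, and the 12 largest rises from 2.54 to 4.36. Beside *S100a9*, *S100a8*, *Stfa1*, BC100530 and *Aldh1a3*, they held *Lgals7*, a galectin of stratified epithelium, with 12.9 FPKM at E16.5 and 4.28 FPKM at E18.5 (-1.59). *Alad*, an enzyme of haem synthesis, had 61.9 FPKM at E16.5 and 27.9 FPKM at E18.5 (-1.15), with 41.9 and 23.5 FPKM in wild type, and *Pop4*, a subunit of RNase P, had 28.8 FPKM at E16.5 and 12.2 FPKM at E18.5 (-1.24). *Apoc1*, a lipoprotein of macrophages and liver, had 18.7 FPKM at E16.5 and 9.62 FPKM at E18.5 (-0.96). The rest were Gm10260, a predicted gene model (294 to 107 FPKM), LOC100503076, a row within the *Slc1a5* locus (16.9 to 7.05 FPKM), and Snora65, a small nucleolar RNA (85.4 to 30.2 FPKM). The Snora65 values rest on about 5 and 2 reads over a span of 118 bases, so its log2 ratio has a counting error of 1.3 and does not stand as a difference.

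Rows for very short transcripts differed far more often than others and are not reliable. Of the 58 rows spanning under 300 bases, 31 (53.4%) were at least 2-fold apart, against 251 of the other 14655 (1.71%). Genes at low levels also differed more often: 141 of 4222 genes whose higher value was under 5 FPKM were at least 2-fold apart (3.34%). Of the 18 genes listed at 0 in a mutant library, 7 were at 0 at E16.5 and 11 at E18.5, and they have no fold.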

How the data were processed

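RNA was measured in 4 libraries of whole male UGS, each pooled from 3 embryos. Libraries were stranded and reads single-end. Per the labels the submitters' processing notes name CASAVA 1.8.2, Trimmomatic 0.30, TopHat2 2.1.0 and Cufflinks 2.2.1. The deposited values are FPKM, which the authors' Cufflinks run scaled to transcript length and mapped reads, in 1 column per library. No genome build is given in the sources used here, and positions are printed from the deposited table, their starts raised by 1 where it counts from 0.

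Groups followed the labels. The log2 ratio of E18.5 over E16.5 mutant FPKM had no pseudocount and no rescaling. It was taken where a gene reached 1 FPKM in either library, with thresholds of 2-fold and 1.5-fold. With 1 library a group no test was possible. 58 gene lists were described by counts and by their median, members at 0 entering by rank. Depth was estimated from olfactory receptor genes of short genomic span that held 1 read, 15 to 27 per library, by a line of inverse FPKM on length. Read numbers and counting errors derive from it, with GENCODE transcript lengths by symbol for 84.1% of the genes compared, and cover counting error only. The genes and lists were chosen with earlier results of these data known. Named genes are the 12 largest rises and falls where the higher library reached 10 FPKM and the lower one 1 FPKM, for each list the 4 with the highest mean and up to 2 with the largest change past 1.5-fold (reaching 5 FPKM in one library and 0.5 in the other), and genes the study names. Not all are printed. The following genes of the report lie outside this rule, as do all genes first named under the other observations, and they were chosen after their values were seen: Actc1, Actn1, Asb2, Camp, Casq1, Chrm2, Chrm3, Des, Ehf, Elf3, Fbxl22, Fhl1, Flna, Gata3, Hba-x, Hbb-y, Htr2b, Jph1, Kcnmb1, Klf5, Krt13, Krt17, Lmod1, Mrvi1, Myl7, Mylk, Ngp, Pax2, Pax8, Pdlim3, Pdlim7, Pparg, Ppp1r12b, Slc1a5, Snx31, Tnnt3, Tpm2, Vcl and Wnt9b.

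Alternatives were 3 scalings (equal sums, median, 75th percentile), other FPKM filters, pseudocounts of 0.01, 0.1 and 1, repeated symbols left out (55 rows), a lowess trend (span 0.3) on length and GC content subtracted, and, chosen after seeing the data, rows under 300 bases left out. The calculations were tested on simulated data. Scripts ran under Python 3.11.15 with statsmodels 0.14.6, scipy 1.17.1, pandas 2.3.3 and numpy 2.4.6, and plots were drawn with matplotlib 3.10.9.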

Additional observations from a re-analysis of the deposited data

Results flagged for a closer look

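For 1 gene list and 4 named genes the mutant and the wild type libraries changed in opposite directions between the stages. With 1 library a group these differences were not tested, and the E18.5 wild type library stood apart as described above. The hepatocyte list had a median log2 ratio of -2.84 in Tbx18GFP/GFP and 1.53 in wild type, and *Alb* had -3.51 and 1.53. Most members, *Alb* among them, passed the filter only through the E16.5 mutant, so the sign of the mutant values was fixed by the filter. The wild type median is over the same genes. Summed over all 16 genes of the list, the mutant had 34.9 FPKM at E16.5 and 23.6 FPKM at E18.5, and wild type 15.1 and 23.2 FPKM. *Acta1* had a log2 ratio of 2.48 in Tbx18GFP/GFP and -1.06 in wild type. For *Pitx1* the ratios were 1.27 and -1.38, and for *Fos* 1.01 and -1.05. Genes were taken here when both ratios were at least 2-fold, and lists when both medians were at least 1.5-fold.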

How the results depend on the processing

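Counts held within 1.5 times under the 3 scalings, pseudocounts of 0.01 and 0.1, repeated symbols or rows under 300 bases left out, and the trend on length and GC content, except that the trend left 148 genes at least 1.5-fold lower. Without an FPKM filter 2641 genes were at least 2-fold apart (1304 higher, 1337 lower) and 4005 at least 1.5-fold (1909 and 2096). With at least 1 FPKM in both libraries 153 were 2-fold apart (124 and 29), and 142 were 1.5-fold lower. At least 5 FPKM in either gave 141 (109 and 32) and 314 (240 and 74). A pseudocount of 1 gave 161 (118 and 43) and 420, 118 of them lower. The filters test other gene sets and the pseudocount shrinks low genes by construction. The smooth muscle, skeletal muscle, neutrophil and hepatocyte medians kept their side of 1.5-fold under the alternatives run on medians (the 3 scalings, pseudocounts of 0.1 and 1, and the trend). With a pseudocount of 1 the hepatocyte median was -0.88 and the neutrophil median -1.895, against -2.84 and -2.76, since many of these genes are under 1 FPKM at E18.5. The uroplakin median fell to 0.57 with equal sums, 0.57 with a pseudocount of 0.1 and 0.46 with one of 1, and its cause was not tested. No median or named gene past 1.5-fold changed sign under these, and 15 of 56 list medians, all near 0, did. No paired analysis was possible because each group has 1 library. Depth limits ratios of genes with few reads, and nothing here measures the spread between embryos.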

Other observations

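Genes outside the lists that were higher at E18.5 in the mutant included several linked to cell anchorage and membranes of muscle cells. They and the genes in the next paragraphs, *Alad* aside, were chosen after their values were seen. *Itgb3*, an integrin subunit, had 1.65 FPKM at E16.5 and 9.96 FPKM at E18.5 (log2 ratio 2.60), with 3.03 and 3.39 FPKM in wild type. *Itga1*, which pairs in a collagen receptor, had 8.38 FPKM at E16.5 and 17.9 FPKM at E18.5 (1.10), and caveolin, *Cav1*, had 92.5 FPKM at E16.5 and 231 FPKM at E18.5 (1.32). *Jph2*, which ties the cell membrane to the calcium store in muscle, had 3.54 FPKM at E16.5 and 14.3 FPKM at E18.5 (2.02), and the kinase *Dmpk* 14.96 FPKM at E16.5 and 46.4 FPKM at E18.5 (1.63). *Tinagl1*, a secreted basement membrane protein, had 15.4 FPKM at E16.5 and 59.2 FPKM at E18.5 (1.94). For these 6 genes the E18.5 mutant was the highest of the 4 libraries.

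Creatine kinase was higher in both its muscle and its brain form, *Ckb* with 46.9 FPKM at E16.5 and 138 FPKM at E18.5 (1.56) and 63.3 and 32.1 FPKM in wild type. The non-muscle and smooth muscle light chain *Myl6* had 583 FPKM at E16.5 and 1124 FPKM at E18.5 (0.95). The water channel *Aqp1* had 9.08 FPKM at E16.5 and 22.3 FPKM at E18.5 (1.30), and *Rarres2*, a secreted chemoattractant, 48.7 FPKM at E16.5 and 103 FPKM at E18.5 (1.08).

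Among the falls, *Alad* had a neighbour on chromosome 4 that was lower as well, *Hdhd3* with 11.1 FPKM at E16.5 and 5.71 FPKM at E18.5 (-0.96). In the deposited table *Hdhd3* ends at 62163234 and *Alad* starts at 62170204. *Slc1a5*, an amino acid transporter, had 18.6 FPKM at E16.5 and 9.79 FPKM at E18.5 (-0.93), beside the row within its locus given above. In wild type *Hdhd3* had 7.79 and 2.22 FPKM and *Slc1a5* 19.8 and 7.70 FPKM.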
